A study of Homo sapiens with 16 samples.

Results

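LhTERTL is the only one of 4 PC-3 tumour lines that carried an introduced copy of hTERT, the catalytic protein of telomerase, and its 4 tumours of the 16 in the series are described here against every other line. PC-3 is an established human prostate cancer cell line. Cells of each line were injected under the skin of female nude mice, 5 weeks old and of BALB/c background, and RNA was taken from tumours of at least 5 mm. Each line gave 4 independent tumours and each tumour 1 Affymetrix array. LhTERTL tumours had long telomeres and exogenous hTERT. In mock tumours telomeres were short and exogenous hTERT was absent. The mock_cre tumours likewise had short telomeres without exogenous hTERT and, by their name, had received Cre, a recombinase that removes DNA between its target sites. In LhTERTL_cre tumours telomeres were long, Cre had been given and exogenous hTERT was absent. No group was treated, and all 4 share the PC-3 background with its own TERT gene. Each group is a single line, so exogenous hTERT cannot be told apart from any other property of the LhTERTL line, and p-values measure only the spread between tumours of a line.

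Telomerase adds telomeric repeats to chromosome ends with TERT as its reverse transcriptase and an RNA as template. Most cancers, PC-3 included, express it, and adding hTERT lengthens telomeres in cells whose own activity is low. TERT protein has also been reported to act on gene expression without regard to telomere length. By its labels LhTERTL_cre shares long telomeres with LhTERTL and differs from it in both exogenous hTERT and Cre. Mock shares the lack of Cre and differs in telomere length and exogenous hTERT. No comparison of LhTERTL with another line therefore changes exogenous hTERT alone.

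A gene was said to set LhTERTL apart where its mean there was higher, or lower, than the mean of each of the 3 other lines, with an adjusted p under 0.05 in all 3 comparisons (limma, Benjamini-Hochberg over 20279 genes, two-sided). The 3 comparisons share the LhTERTL arrays, so they are not independent of each other. The size given is the difference from the nearest other line, in log2 units. Each deposited log2 signal has the 16-array median of its probe set taken off, which leaves differences between tumours and no expression level. The labelled cell type could therefore not be checked against its markers. In whole tumours, fewer cells of a type and less RNA per cell cannot be told apart, and mouse host RNA is seen only where it binds the human probes.

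Of the array controls, the signal ratio differed most between LhTERTL and mock_cre. The 3'/5' signal ratio of the control probe sets, a sign of RNA quality, averaged -0.08 ± 0.15 in LhTERTL, against 0.07 ± 0.18 in mock, 0.64 ± 0.38 in mock_cre and -0.07 ± 0.21 in LhTERTL_cre (centred log2, SD, n = 4 each). LhTERTL minus mock_cre was -0.72, with a two-sided p of 0.0286 by an exact permutation test, which is the smallest 4 against 4 can give, and an adjusted p of 0.229 over 8 tests. The spiked-in poly-A controls gave high signals in 5 arrays, LhTERTL 3 among them, and their mean differed by -0.04 between LhTERTL and the 12 other arrays (permutation test, p = 0.973). The number of arrays, 4 in a line, limits the precision.

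TERT itself was highest in LhTERTL by 1 of its 2 probe sets. That probe set read 3.32, 2.82, 2.83 and 3.41 in LhTERTL tumours 1 to 4, against at most 0.11 in mock, 0.24 in mock_cre and 0.30 in LhTERTL_cre tumours. No LhTERTL tumour overlapped any other tumour. The difference from the nearest line was 3.08 ± 0.17 (SE), or 8.48-fold. The other probe set did not follow it. It averaged -0.14 ± 0.08 in LhTERTL, against 0.44 ± 0.37 in mock, -0.26 ± 0.25 in mock_cre and 0.21 ± 0.25 in LhTERTL_cre (SD, n = 4 each), and LhTERTL passed the test only against mock, where it was lower (-0.58, adjusted p = 0.0181). The mean of both, used as the gene value, was higher in LhTERTL by 1.27, 1.69 and 1.36 against mock, mock_cre and LhTERTL_cre. Which probe set the introduced copy can bind was not tested.

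**Figure D1:**
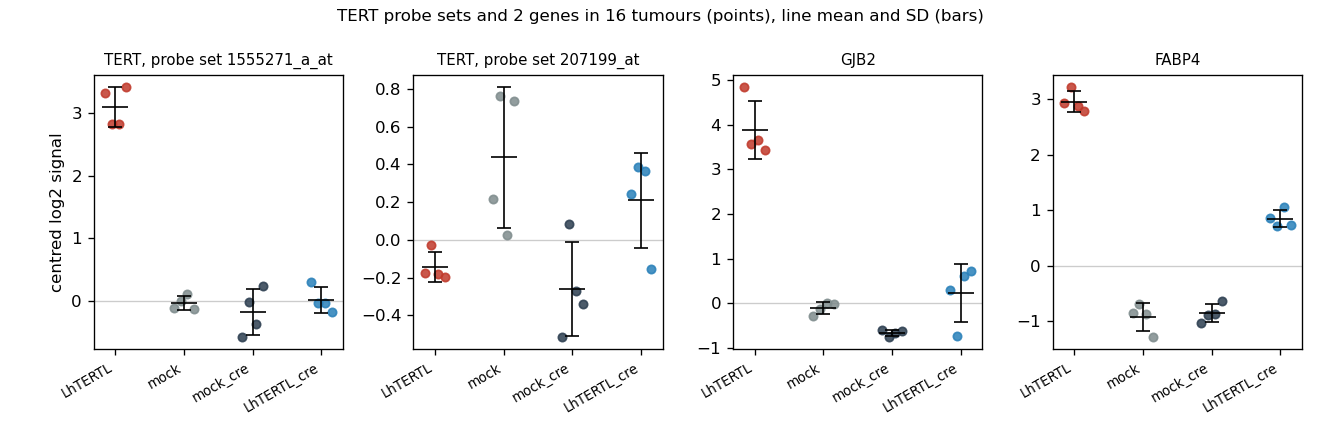
Centred log2 signal of both TERT probe sets, GJB2 and FABP4 in each tumour (points) with line means and SD (bars, n = 4). LhTERTL tumours lay between 2.82 and 3.41 by the TERT probe set at the far left and at 3.43 or more for GJB2, apart from all other tumours, while the other TERT probe set showed no such step and FABP4 was also raised in LhTERTL_cre.

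Of 20279 genes, 260 were higher in LhTERTL than in every other line, or 1.28% of those tested, and 74 were lower, or 0.365%. Rises thus made up 77.8% of the 334 genes. After quantile normalization the counts were 252 higher and 163 lower, so the split between rises and falls depends on the scaling. The count also rested on single tumours: it was 201 without LhTERTL 1, 189 without LhTERTL 2, 174 without LhTERTL_cre 2 and 209 without LhTERTL_cre 3. Falls alone were 116 without LhTERTL_cre 1. Against a single line, many more genes passed. LhTERTL was higher for 2494 genes (12.3%) and lower for 1621 (7.99%) against mock, and higher for 3772 (18.6%) and lower for 2742 (13.5%) against mock_cre. Adjusting the model for each array's 3'/5' control signal lowered the mock_cre count, both signs together, from 6514 to 4419. The same adjustment raised the count from 4115 to 4431 against mock, and from 657 to 755 against LhTERTL_cre. Genes set apart went from 334 to 346. Against LhTERTL_cre, the other long-telomere line, 470 genes were higher (2.32%) and 187 lower (0.922%). That sum of 657 was 374 without LhTERTL 1, 312 without LhTERTL 2, 265 without LhTERTL_cre 2, 393 without LhTERTL_cre 3 and 992 without LhTERTL_cre 4. Against the mean of the other lines LhTERTL was higher for 2683 genes (13.2%) and lower for 1646 (8.12%), and 3995 of these 4329 genes did not pass against each line with 1 sign.

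The same rule gave 569 genes (2.81%) that set mock apart, 2101 (10.4%) for mock_cre and 99 (0.488%) for LhTERTL_cre. Higher genes made up 59.2% of those of mock, 45.1% of those of mock_cre and 34.3% of those of LhTERTL_cre. LhTERTL therefore had the largest share of rises among the 4 lines in the deposited scaling. Whether these shares differ between lines was not tested.

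**Figure D2:**
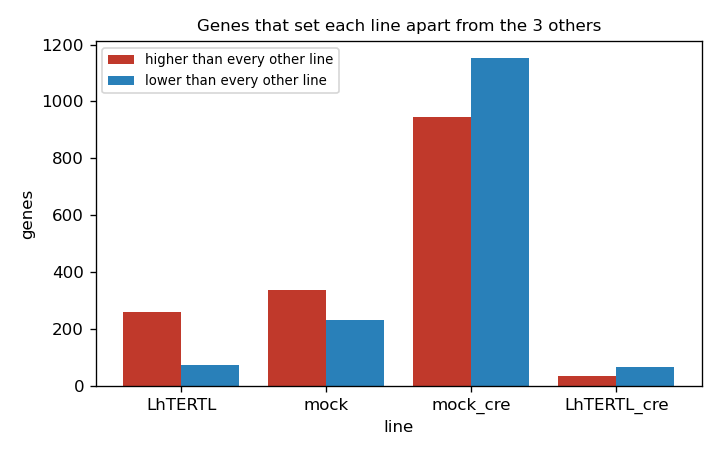
Number of genes (bars, from 0) whose mean in a line was higher (red) or lower (blue) than in each of the 3 other lines. LhTERTL had 260 higher and 74 lower genes, mock 337 and 232, mock_cre 947 and 1154, and LhTERTL_cre 34 and 65.

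Rises of LhTERTL were larger than its falls. The median difference from the nearest line was 0.48 among the 260 rises and -0.37 among the 74 falls. At least 2-fold from every line were 37 rises and 1 fall. All 4 LhTERTL tumours lay above all 12 others for 215 of the 260 and below them for 53 of the 74, against 2.12% and 0.819% of all genes, and the rule used those values. For 199 rises and 56 falls, LhTERTL was farther from its nearest line than the 3 other lines were from each other. The rule chose these genes for their distance from each line, so the 199 and 56 follow in part from it. Shares over all genes were not counted for these or for the positions of LhTERTL_cre that follow. LhTERTL_cre lay between LhTERTL and both short-telomere lines for 115 rises and 38 falls, within the range of the short-telomere lines for 82 and 28, and beyond both of them for 63 and 8.

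The largest rise was in GJB2, which encodes connexin 26, a channel protein of gap junctions. It stood at 4.84, 3.57, 3.65 and 3.43 in LhTERTL tumours 1 to 4, against -0.28, -0.12, 0.01 and -0.01 in mock, -0.58, -0.74, -0.66 and -0.63 in mock_cre, and 0.30, -0.72, 0.62 and 0.72 in LhTERTL_cre tumours. The lowest LhTERTL tumour was far above the highest of the others. LhTERTL was 3.64 ± 0.28 (SE, 12.5-fold) above LhTERTL_cre, the nearest line, with a largest adjusted p of 7.14e-07 over the 3 comparisons. GJB6, the connexin 30 gene and a neighbour of GJB2, did not pass, at -0.11, -0.15 and 0.01 against mock, mock_cre and LhTERTL_cre.

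RAI2, a gene named for its induction by retinoic acid, stood at 2.66, 3.78, 2.61 and 2.28 in LhTERTL tumours, against -0.35 to 0.14 in mock, -0.28 to 0.15 in mock_cre and -0.49 to 0.06 in LhTERTL_cre tumours. All LhTERTL tumours were high and the 3 other lines were level with each other. The difference from mock_cre, the nearest line, was 2.90 ± 0.23 (SE, 7.48-fold, largest adjusted p = 3.43e-07). RTN1, a reticulon of the endoplasmic reticulum best known from neurons, stood at 1.97, 2.28, 2.84 and 1.82 in LhTERTL, against -0.10 to 0.19 in mock, -0.93 to -0.34 in mock_cre and -0.24 to 0.23 in LhTERTL_cre. It was 2.18 ± 0.18 (SE, 4.53-fold) above mock, and both of its probe sets met the rule.

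The promoters of these 3 genes are shown because the genes rose most yet differ in the motifs near their start sites. Each is the RefSeq sequence on GRCh38.p14 over 300 bases that span the start site, 5′ to 3′ on the gene's strand. GJB2 lies at chr13:20192889-20193188 (minus strand), RAI2 at chrX:17860856-17861155 (minus strand) and RTN1 at chr14:59610090-59610389 (minus strand). Capitals mark the GC box GGGCGG and the TATA box TATAAA on either strand; the E-box CACGTG was searched as well and was in none of them.
GJB2 promoter: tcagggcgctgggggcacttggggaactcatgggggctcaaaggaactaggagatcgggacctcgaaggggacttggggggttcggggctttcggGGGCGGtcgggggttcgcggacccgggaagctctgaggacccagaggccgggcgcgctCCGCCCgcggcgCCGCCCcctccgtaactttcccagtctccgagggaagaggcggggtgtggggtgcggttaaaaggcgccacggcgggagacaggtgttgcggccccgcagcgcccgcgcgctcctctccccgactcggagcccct
RAI2 promoter: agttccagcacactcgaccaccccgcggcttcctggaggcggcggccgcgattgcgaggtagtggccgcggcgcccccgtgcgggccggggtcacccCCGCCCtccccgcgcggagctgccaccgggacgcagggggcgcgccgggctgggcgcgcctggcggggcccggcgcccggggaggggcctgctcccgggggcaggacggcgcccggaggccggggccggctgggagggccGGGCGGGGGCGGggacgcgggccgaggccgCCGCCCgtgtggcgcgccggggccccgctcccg
RTN1 promoter: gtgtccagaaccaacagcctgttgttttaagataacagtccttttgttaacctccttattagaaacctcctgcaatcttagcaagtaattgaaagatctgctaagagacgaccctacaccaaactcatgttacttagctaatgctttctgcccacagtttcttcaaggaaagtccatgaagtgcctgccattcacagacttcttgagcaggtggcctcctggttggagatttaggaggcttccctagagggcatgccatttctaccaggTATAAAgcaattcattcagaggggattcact
GJB2 holds 3 GC boxes and RAI2 holds 4, with no TATA box, and RTN1 holds 1 TATA box and no GC box. Among genes with a promoter in the table, TATAAA was in 12.5% of 200 rises, 5.77% of 52 falls and 8.55% of all 14944. GGGCGG was in 59.0%, 67.3% and 60.6% of them, and CACGTG in 9.0%, 7.69% and 9.03%. A match says only that the letters are there, and none of these shares was tested.

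The other 9 of the 12 largest rises were between 1.63 and 2.17 above the nearest line. Enzymes and transport proteins were among them. ALOX5AP, the protein that presents arachidonic acid to 5-lipoxygenase, stood at 2.31, 3.0, 2.30 and 1.51 in LhTERTL, against -0.39 to 0.24 over the 12 other tumours (2.17 ± 0.20 above mock, SE). CA2, a cytosolic carbonic anhydrase, stood at 2.10, 2.89, 2.11 and 1.71, against at most 0.31 elsewhere (2.11 ± 0.17). CYP1B1, a cytochrome P450 of steroid and xenobiotic metabolism, stood at 2.22, 1.85, 1.30 and 1.55, against at most 0.09 elsewhere (1.75 ± 0.13), and 3 of its 4 probe sets met the rule. For each of these genes the groups did not overlap, and the other lines lay close together.

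CP, which encodes ceruloplasmin, a copper-binding ferroxidase, met the rule by all 4 of its probe sets. It averaged 1.98 ± 0.36 in LhTERTL, against -0.10 ± 0.48 in mock, 0.16 ± 0.41 in mock_cre and -0.93 ± 0.51 in LhTERTL_cre (SD, n = 4 each), so LhTERTL_cre was the line farthest from LhTERTL. FAM9A, an X-linked gene expressed mainly in testis, averaged 2.27 ± 0.62 in LhTERTL, against 0.45 ± 0.41 in mock, -0.30 ± 0.10 in mock_cre and -0.35 ± 0.21 in LhTERTL_cre. Both genes separated LhTERTL from all other tumours, with differences from the nearest line of 1.82 ± 0.27 and 1.82 ± 0.23 (SE).

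Secreted proteins and a ubiquitin ligase completed the rises. BMP2, a ligand of the TGF-beta superfamily, was even among LhTERTL tumours, at 1.93, 1.77, 1.67 and 2.0, against -0.48 to 0.06 in mock, -0.51 to -0.21 in mock_cre and -0.55 to 0.58 in LhTERTL_cre (1.63 ± 0.19 above LhTERTL_cre, SE, largest adjusted p = 0.000116). TGFBI, a secreted matrix protein induced by TGF-beta, stood at 2.49, 1.75, 1.81 and 1.06 in LhTERTL, against at most 0.66 elsewhere (1.70 ± 0.28 above mock_cre, largest adjusted p = 0.000843). RNF128, a ubiquitin ligase known from T cells, was uneven. LhTERTL tumours 2 and 3 stood at 2.37 and 2.77, tumours 1 and 4 at 0.86 and 0.77, and no other tumour was above 0.18. Its difference from LhTERTL_cre was 1.73 ± 0.32 (largest adjusted p = 0.0057), and fitting each comparison on its own 8 arrays ended the call (adjusted p = 0.0665), as did the 11 arrays of low spike signal (0.054).

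**Figure D3:**
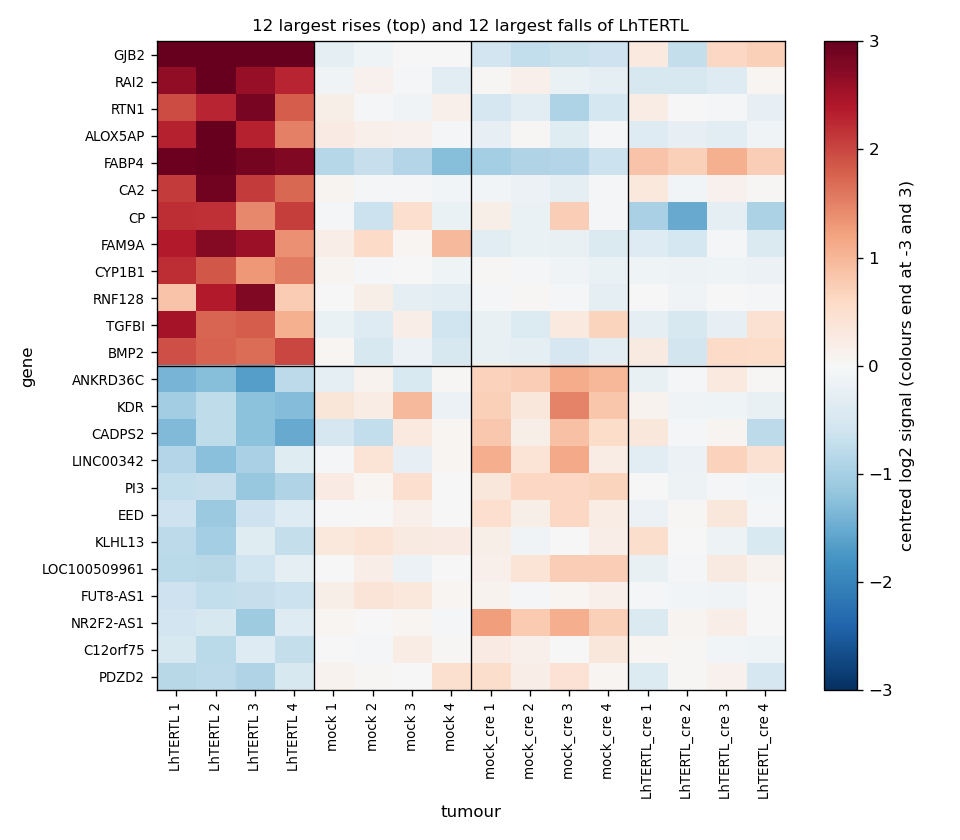
Centred log2 signal (colour) of the 12 genes with the largest rises (top) and the 12 with the largest falls of LhTERTL in each of the 16 tumours. The 4 LhTERTL columns are red for the rises and blue for the falls, FABP4 is also raised in LhTERTL_cre, and several falls are highest in mock_cre.

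FABP4, a carrier of fatty acids known from adipocytes and macrophages, formed steps between the lines. It stood at 2.94, 3.22, 2.88 and 2.78 in LhTERTL, against -0.86, -0.69, -0.87 and -1.28 in mock, -1.03, -0.89, -0.88 and -0.64 in mock_cre, and 0.87, 0.72, 1.06 and 0.74 in LhTERTL_cre tumours. LhTERTL was highest, LhTERTL_cre was intermediate and the short-telomere lines were lowest, with no overlap between these levels. LhTERTL was 2.11 ± 0.12 (SE, 4.32-fold) above LhTERTL_cre and 3.88 and 3.82 above mock and mock_cre. Of 12 adipocyte markers, FABP4 was the only one that set LhTERTL apart, beside 1.28% higher and 0.365% lower over all genes. Without it the mean of the list ranged from -0.10 to 0.07 in LhTERTL and from -0.11 to 0.09 over the other tumours, and ADIPOQ, the adipocyte hormone gene, differed by 0.14, -0.05 and -0.03 from mock, mock_cre and LhTERTL_cre.

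Of 23 genes of lipid handling, 3 were higher in LhTERTL than in every line and 0 lower, beside 1.28% and 0.365% of all genes, and all 3 were fatty acid binding proteins. FABP5, the epidermal form, stood at 0.53, 0.63, 0.63 and 0.61 in LhTERTL, against -0.31 to -0.06 in mock, -0.97 to -0.65 in mock_cre and 0.06 to 0.29 in LhTERTL_cre (0.41 ± 0.08 above LhTERTL_cre, SE, largest adjusted p = 0.00821). FABP6, the ileal bile acid binding form, averaged 0.35 ± 0.14 in LhTERTL, against 0.01 ± 0.04, -0.28 ± 0.09 and 0.02 ± 0.04 in mock, mock_cre and LhTERTL_cre (SD), but its call ended without LhTERTL_cre 2 (adjusted p = 0.0644), on 8 arrays (0.074) or at low spike signal (0.0568), and rested on 1 of 3 probe sets. FABP3, the muscle form, was level, at 0.01, 0.06 and -0.03. PPARG, the nuclear receptor that drives fat cell genes, was 0.72, 0.29 and 0.53 higher and passed only against mock (adjusted p = 0.00251). The list's medians were 0.15, 0.14 and 0.05 against mock, mock_cre and LhTERTL_cre, beside 0.01, 0.03 and 0.01 over all genes.

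Hypoxia and glycolysis genes held the most members set apart of any list. Cells short of oxygen take up more glucose and break it down to lactate, and many genes of that response are targets of HIF. Of 30 genes 5 were higher in LhTERTL than in every other line and 0 were lower, beside 1.28% and 0.365% of all genes. Against mock, 15 were higher and 0 lower, beside 12.3% and 7.99% of all genes. Against mock_cre, 22 were higher and 2 lower, beside 18.6% and 13.5%, and against LhTERTL_cre 8 were higher and 0 lower, beside 2.32% and 0.922%. The list's medians were 0.26, 0.51 and 0.17. The list mean was 0.16 to 0.28 in LhTERTL tumours, against -0.07 to -0.02 in mock, -0.28 to -0.13 in mock_cre and -0.08 to 0.10 in LhTERTL_cre, so the LhTERTL tumours lay above all others. The count of 5 was 3 with each comparison fitted on its own 8 arrays and 6 after quantile normalization, and 0 members reached 1.5-fold from every line.

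BNIP3, a mitochondrial protein of hypoxia-induced mitophagy, stood at 0.75, 0.43, 0.72 and 0.56 in LhTERTL, against 0.01 to 0.11 in mock, -0.73 to -0.52 in mock_cre and -0.28 to 0.02 in LhTERTL_cre. It was 0.56 ± 0.08 (SE, largest adjusted p = 0.000153) above mock, without overlap. CA9, a cell-surface carbonic anhydrase that HIF induces, stood at 0.42, 0.50, 0.86 and 0.44, against at most 0.27 elsewhere (0.53 ± 0.10 above mock). NDRG1, a stress-induced gene that androgen also induces in prostate cells, stood at 0.58, 0.57, 0.42 and 0.30, against at most 0.11 elsewhere (0.47 ± 0.09 above LhTERTL_cre), and its call ended in the 11 arrays of low spike signal (adjusted p = 0.0558). The glucose transporter SLC2A1 was 0.44, 0.63 and 0.50 higher than in mock, mock_cre and LhTERTL_cre, and hexokinase HK1 was 0.39, 0.75 and 0.28 higher. Other members did not separate LhTERTL. VEGFA, the angiogenic factor, was at -0.03, -0.21 and 0.18, and LDHA, which makes lactate, at -0.02, 0.25 and 0.10.

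**Figure D4:**
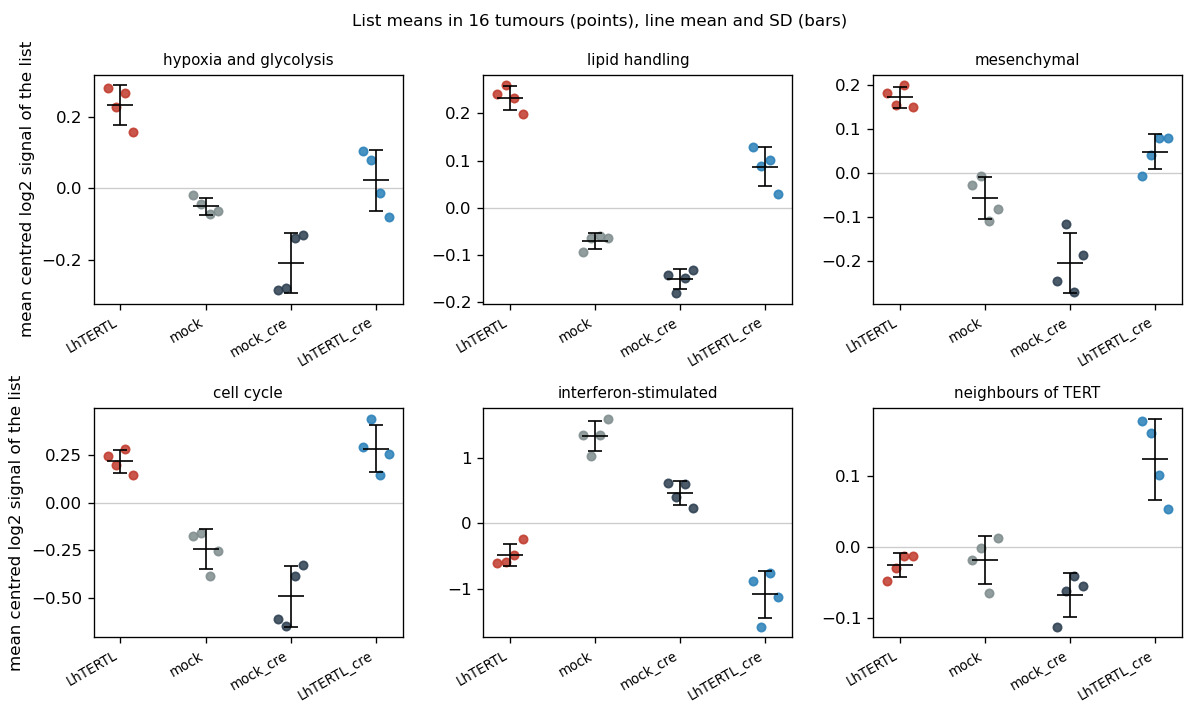
Mean centred log2 signal of 6 gene lists in each tumour (points) with line means and SD (bars, n = 4). The LhTERTL tumours were above all others for hypoxia and glycolysis (0.16 to 0.28), lipid handling (0.20 to 0.26) and mesenchymal genes (0.15 to 0.20), and not for the cell cycle, interferon-stimulated or neighbouring genes. The lipid handling mean includes FABP4, at 2.78 to 3.22 in LhTERTL and 0.72 to 1.06 in LhTERTL_cre. The median difference of that list from LhTERTL_cre was 0.05, and its separation without FABP4 was not tested.

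No interferon-stimulated or cell cycle gene set LhTERTL apart. By limma 0 of 52 interferon-stimulated genes, 0 of 18 MHC class I genes and 0 of 40 cell cycle genes met the rule, and with unadjusted p-values in its place the counts were 0, 1 (lower) and 0. Over all genes 1.28% met the rule as higher and 0.365% as lower, so counts of 0 are near the background. LhTERTL was lower for 50 of 52 interferon-stimulated genes against mock and 44 against mock_cre, beside 7.99% and 13.5% of all genes. It was higher for 0 against mock and 3 against mock_cre, beside 12.3% and 18.6%. Against LhTERTL_cre it was higher for 15, beside 2.32%, and lower for 0, beside 0.922%. The medians were -1.87, -1.01 and 0.49. Their list mean was -0.61 to -0.24 in LhTERTL and -1.57 to -0.75 in LhTERTL_cre, so LhTERTL lay between its long-telomere partner and both short-telomere lines. Of 40 cell cycle genes 26 were higher against mock and 32 against mock_cre, beside 12.3% and 18.6% of all genes. Against LhTERTL_cre the count was 0 in either direction, near the shares of 2.32% higher and 0.922% lower over all genes, where 2 had an unadjusted p under 0.05 (median -0.07).

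TERT was the only gene of the telomerase machinery that set LhTERTL apart. Of 14 genes of the telomerase complex and its assembly, TERT alone met the rule, beside 1.28% higher over all genes. With TERT included, 4 were higher and 0 lower against mock, beside 12.3% and 7.99% of all genes. Against mock_cre 8 were higher and 1 lower, beside 18.6% and 13.5%. Against LhTERTL_cre 1, TERT itself, was higher and 0 were lower, beside 2.32% and 0.922%. SHQ1, RUVBL2 and WRAP53 were higher against both short-telomere lines. DKC1, which encodes the dyskerin that binds the telomerase RNA, was 0.20, 0.71 and 0.14 higher than in mock, mock_cre and LhTERTL_cre and passed only against mock_cre. By limma 0 of 14 shelterin, CST and tankyrase genes, whose proteins cap and maintain telomeres, met the rule (0 with unadjusted p-values), with medians of -0.01, -0.02 and 0.00. Of 23 neighbours of TERT at the end of chromosome 5, 0 met it (2 lower with unadjusted p-values), and their mean was -0.05 to -0.01 in LhTERTL tumours, against 0.05 to 0.18 in LhTERTL_cre. For both lists a count of 0 is near the shares of 1.28% higher and 0.365% lower over all genes.

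Falls in LhTERTL were fewer and smaller. The largest was in ANKRD36C (LOC400986 in the deposited file), a member of an ankyrin repeat family whose copies are near-identical, so that the probe set may read several of them. It stood at -1.40, -1.27, -1.64 and -0.79 in LhTERTL, against -0.45 to 0.10 in mock, 0.69 to 1.10 in mock_cre and -0.22 to 0.30 in LhTERTL_cre. All LhTERTL tumours were low, mock_cre was high, and the difference from mock was -1.14 ± 0.16 (SE, largest adjusted p = 0.000285). PI3, which encodes elafin, a protease inhibitor of epithelia, stood at -0.74, -0.69, -1.13 and -0.90, against 0.00 to 0.50 in mock, 0.34 to 0.68 in mock_cre and -0.15 to 0.00 in LhTERTL_cre (-0.79 ± 0.11 against LhTERTL_cre, largest adjusted p = 0.000695), and both of its probe sets met the rule.

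KDR, which encodes the VEGF receptor VEGFR2, stood at -1.04, -0.77, -1.23 and -1.29 in LhTERTL, against -0.17 to 0.98 in mock, 0.33 to 1.5 in mock_cre and -0.23 to 0.10 in LhTERTL_cre. The groups did not overlap, and the difference from LhTERTL_cre was -0.99 ± 0.22 (SE, adjusted p = 0.0197), a call that ended without LhTERTL 3 (adjusted p = 0.0527), LhTERTL 4 (0.0517) or LhTERTL_cre 2 (0.0579), or in the 11 arrays of low spike signal (0.0892). Of 15 endothelial markers KDR alone met the rule, beside 1.28% higher and 0.365% lower over all genes. Against mock 1 marker was higher and 1 lower, beside 12.3% and 7.99% of all genes. Against mock_cre 2 were higher and 1 lower, beside 18.6% and 13.5%. Against LhTERTL_cre 0 were higher and 2 lower, beside 2.32% and 0.922%. The list mean was -0.13 to 0.03 in LhTERTL and -0.16 to 0.12 over the other tumours. By line it averaged -0.071 in LhTERTL, -0.003 in mock, -0.053 in mock_cre and 0.051 in LhTERTL_cre. PECAM1, an adhesion protein of endothelium, was 0.45 and 0.37 higher than in mock and mock_cre and level with LhTERTL_cre (0.03). The part of host or endothelial RNA in the KDR signal was not tested. The KDR promoter (RefSeq, GRCh38.p14, chr4:55125546-55125845, minus strand) is shown beside those of the rises, with its 2 GC boxes in capitals.
KDR promoter: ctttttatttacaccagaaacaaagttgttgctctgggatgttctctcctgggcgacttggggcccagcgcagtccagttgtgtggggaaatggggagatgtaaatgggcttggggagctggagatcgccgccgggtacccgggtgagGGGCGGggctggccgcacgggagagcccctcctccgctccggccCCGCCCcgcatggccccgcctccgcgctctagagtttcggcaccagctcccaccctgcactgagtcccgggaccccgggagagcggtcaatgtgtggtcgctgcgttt

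EED, a core subunit of Polycomb repressive complex PRC2, stood at -0.62, -1.11, -0.61 and -0.39 in LhTERTL, against 0.00 to 0.16 in mock, 0.17 to 0.62 in mock_cre and -0.17 to 0.35 in LhTERTL_cre (-0.72 ± 0.14 against LhTERTL_cre, SE, largest adjusted p = 0.00783), by 1 of its 2 probe sets. Fitted on the 8 arrays of each comparison, EED was not called (adjusted p = 0.0525). C12orf75 averaged -0.59 ± 0.19 in LhTERTL and at least -0.02 in each other line, and FUT8-AS1, an antisense RNA, -0.67 ± 0.05 and at least -0.05. FUT8-AS1 was the most even fall, at -0.63, -0.73, -0.68 and -0.64 in the 4 LhTERTL tumours. CADPS2 (-0.98), which primes secretory vesicles, and LINC00342 (-0.91), a long non-coding RNA, each lost the call under 9 of 30 alternative settings. KLHL13 (-0.70), a ubiquitin ligase adaptor, lost it under 7, LOC100509961 (-0.63) under 6, NR2F2-AS1 (-0.59), an antisense RNA, under 14 and PDZD2 (-0.56), a PDZ domain protein, under 17.

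Matrix and adhesion genes moved in both directions. Beside the counts below, 1.28% of all genes were higher and 0.365% lower than in every line. LAMA5, the laminin alpha 5 chain of basement membranes, stood at -0.65, -0.67, -0.55 and -0.51 in LhTERTL, against -0.02 to 0.15 in mock, 0.57 to 0.87 in mock_cre and -0.32 to 0.07 in LhTERTL_cre (-0.51 ± 0.09 against LhTERTL_cre, SE). It and ITGA2, the collagen-binding integrin alpha 2 chain (-0.27 from mock_cre), were the 2 lower genes of 30 integrins and laminins, with 0 higher. The ITGA2 call ended without LhTERTL 1 (adjusted p = 0.0762) or LhTERTL 2 (0.0652). Of 30 mesenchymal genes TGFBI and COL3A1, a fibrillar collagen, were higher and 0 lower. COL3A1 stood at 0.56, 0.18, 1.19 and 0.39 in LhTERTL, against at most 0.21 elsewhere, so tumour 2 overlapped the others, and its call ended under 16 of 30 alternative settings. Of 15 fibroblast markers COL3A1 alone met the rule, and the list mean was 0.05 to 0.22 in LhTERTL, against -0.27 to 0.10 elsewhere. These markers were higher for 5 genes against mock, 7 against mock_cre and 1 against LhTERTL_cre, and lower for 0. The shares higher over all genes were 12.3%, 18.6% and 2.32%, and the shares lower were 7.99%, 13.5% and 0.922%. The part of host fibroblasts was not tested.

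GJB2 was the only gene of 36 junction and epithelial genes that was higher in LhTERTL than in every other line. Over all genes that share was 1.28%. CDH1, the epithelial cadherin, differed by 0.91, 0.00 and 0.74 from mock, mock_cre and LhTERTL_cre and passed only against mock (adjusted p = 0.0111).

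Signalling genes gave single members. Shares of 1.28% higher and 0.365% lower over all genes stand beside the counts that follow. LGR5, the R-spondin receptor and a Wnt target, stood at 0.94, 1.38, 0.51 and 1.62 in LhTERTL, against -0.18 to 0.24 elsewhere (1.07 ± 0.17 above LhTERTL_cre, SE, largest adjusted p = 0.00163), by 1 of its 2 probe sets, and no other gene of 20 Wnt targets met the rule. LIF, a cytokine of the interleukin 6 family, stood at -0.30, -0.61, -0.56 and -0.41, against -0.11 to 0.30 elsewhere (-0.43 ± 0.08 from LhTERTL_cre, largest adjusted p = 0.00824). The LIF call ended in the 11 arrays of low spike signal (adjusted p = 0.0511). Of 28 NF-kB targets and cytokines, LIF fell and the inhibitor NFKBIE rose (0.29). The NFKBIE call ended under 15 of 30 alternative settings. SESN1, a p53 target that curbs mTORC1, stood at 0.61, 0.37, 0.53 and 0.56, against -0.42 to 0.24 elsewhere (0.45 ± 0.09 above LhTERTL_cre, adjusted p = 0.0132), and no other gene of 25 p53 targets met the rule. Its adjusted p was 0.0513 without LhTERTL_cre 2 and 0.0508 with each comparison on its own 8 arrays. Of 24 genes of the prostate lineage NDRG1 and TP63, a basal cell factor, were higher and 0 lower, and the TP63 call (0.24) ended under 24 of 30 alternative settings.

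By limma 0 genes met the rule in the lists of MYC and ribosome biogenesis, respiratory chain, cholesterol synthesis, unfolded protein response and DNA repair. With unadjusted p-values, 0 to 2 of each list were higher and 0 to 2 lower. Macrophage, erythrocyte, muscle and keratinocyte markers gave 0 either way. Under the rule, counts of 0 in lists of these sizes are near the shares of 1.28% higher and 0.365% lower over all genes.

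Probe sets that name no gene or several genes were fitted apart from the genes, and 111 of 13134 (0.845%) met the rule, 24 higher and 87 lower, so that falls were the majority there, unlike the 260 higher and 74 lower among the 20279 genes.

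By chromosome, rises were most frequent on chromosome 13, which was singled out after its values were seen. There 15 of 347 genes (4.32%) were higher in LhTERTL than in every line and 0 were lower, GJB2 and ALOX5AP among the 15. Chromosome 10 followed with 21 of 731 (2.87%) and 0 lower, then X with 19 of 724 (2.62%) and 1 lower. Falls were most frequent on chromosome 5, with 12 of 860 genes (1.40%). The median of all measured chromosome 13 genes was 0.07, 0.07, 0.07 and 0.09 in LhTERTL tumours 1 to 4 and at most 0.03 in any other tumour. LhTERTL minus mock, mock_cre and LhTERTL_cre had chromosome 13 medians of 0.05, 0.11 and 0.11, beside 0.01, 0.03 and 0.01 over all genes. No test was run on these values.

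**Figure D5:**
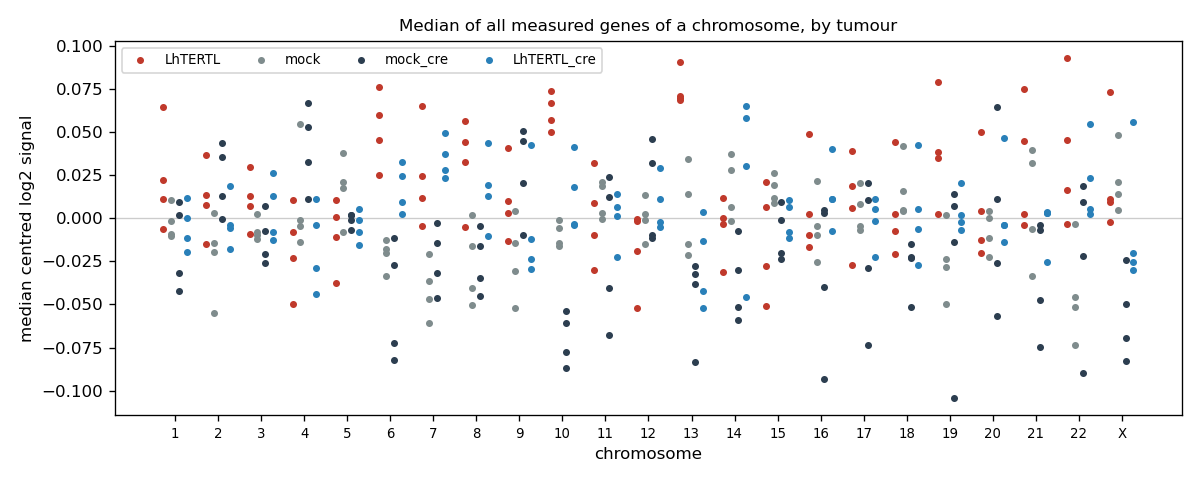
Median centred log2 signal of all measured genes of each chromosome (horizontal axis), 1 point per tumour. On chromosome 13 the LhTERTL tumours lay at 0.0685 to 0.0905 and the other 12 at 0.0342 or less, and on chromosome 10 at 0.05 to 0.0738 and 0.0413 or less.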

How the data were processed

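RNA of 16 xenograft tumours was measured on 16 Affymetrix arrays. The deposited values are log2 signals from RMA, per the submitters' processing notes; the authors' platform, RMA software and probe annotation are not given in the sources used here. Each probe set is centred on its median over the 16 arrays, as the values show (largest median 5e-07). Of 54675 probe sets, 41479 named exactly 1 gene, and 10 of these were left out because their symbols clashed. The mean of a gene's probe sets gave values for 20279 genes, 3313 with symbols updated through RefSeq (19249 matched).

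Genes were tested with limma 3.58.1 (R 4.3.3) as 4 line means on 16 arrays with eBayes variances; p-values were two-sided and adjusted by Benjamini-Hochberg for the 20279 genes, with 0.05 as the threshold. The genes named are TERT, the 12 largest rises and 12 largest falls by difference from the nearest line, and up to 3 members of each list that set LhTERTL apart, largest first. A gene that this rule picks is not reported here. SLC2A1 and HK1, and list members that did not meet the rule, were named after their values were seen. The 20 gene lists, the 7 marker lists and the members were chosen with earlier results of these data known. HBA1, HBA2, HBG1 and HBG2 were not measured. In 5 simulated runs with 200 genes shifted in LhTERTL, 65.6% of shifts of 0.5 log2 and 97.6% of shifts of 1 were recovered, with 0.2 false calls a run on average among the unchanged genes. The simulated noise was normal and independent between genes, and beyond 200 genes shifted in another line the lines were equal. In the real arrays 4115 genes differed from mock and 6514 from mock_cre, so these rates need not hold there. Array controls were compared with exact permutation tests over arrays (scipy 1.17.1). Tables were made in Python 3.11.15 (numpy 2.4.6, pandas 2.3.3), and figures in matplotlib 3.10.9. Alternatives were other gene values, normalization, thresholds, variance models, array weights, a replicate block, subsets of arrays and technical covariates.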

Additional observations from a re-analysis of the deposited data

Results flagged for a closer look

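A value was singled out where the highest or lowest of a line's 4 tumours stood far from the other 3 relative to the line's range, which chance alone gives in about 1 of 20 lines, and 6 of 156 lines checked for the named genes met it. GJB2 was 4.84 in LhTERTL tumour 1, with the next tumour at 3.65. FABP6 was 0.555 in LhTERTL tumour 3, with the next at 0.288. In the other lines, CYP1B1 was -0.187 in LhTERTL_cre tumour 4, COL3A1 was -0.227 in LhTERTL_cre tumour 1, EED was 0.16 in mock tumour 3, and ITGA2 was -0.16 in mock_cre tumour 4.

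Probe sets that name no gene or several genes enter none of the gene counts above. Fitted on their own by the same rule, 111 of 13134 (0.845%) set LhTERTL apart, 24 higher and 87 lower. Of these 5 differed at least 2-fold from every line, and the largest rise was 1.64 and the largest fall -1.12.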

How the results depend on the processing

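The 334 genes that set LhTERTL apart (260 higher, 74 lower) became 538 (396 and 142) with each probe set tested alone, 557 (413 and 144) with array weights, 121 (105 and 16) at an adjusted p under 0.01, 115 (105 and 10) at 1.5-fold or more, 147 (120 and 27) with each comparison on its own 8 arrays and 138 (116 and 22) with the largest of the 3 p-values adjusted. Lower genes were 163 after quantile normalization and 113 with the spike class as a block. In the 11 arrays of low spike signal, chosen after seeing the data, 206 genes were set apart (153 higher). LhTERTL minus mock gave 7601 calls with probe sets alone, 2337 at 0.01 and 961 at 1.5-fold; LhTERTL minus mock_cre gave 12892 with probe sets alone and 1849 at 1.5-fold; LhTERTL minus LhTERTL_cre gave 1047, 197 and 261 under these settings, 1262 with weights, 257 on 8 arrays and 373 at low spike signal. LhTERTL minus the mean of the other lines gave 8211, 2406, 573 and, without mock_cre, 2267. Hypoxia and glycolysis genes set apart were 0 at 1.5-fold and 3 on 8 arrays. After quantile normalization 1174 genes set mock_cre apart and 152 LhTERTL_cre. TERT by the probe set that did not rise has no single direction against the 3 lines, and its difference from the mean of the other lines was -0.27 (adjusted p = 0.173), lower where the gene value was higher. The causes were not tested, beyond fewer arrays or stricter limits by construction.

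Leaving out 1 tumour at a time gave 174 to 381 genes set apart (143 to 273 higher, 28 to 116 lower), 3141 to 4365 against mock, 5729 to 6706 against mock_cre, 265 to 992 against LhTERTL_cre, 3154 to 4535 against the mean of the others, 4 to 7 hypoxia genes and 1.22 to 1.33 for TERT. With a replicate block the count was 320 (254 higher, 66 lower). Correlations between the deviations of same-numbered tumours ran from -0.325 to 0.368, and 9 of 24 were over 0.1. Among arrays of other lines, 5 of the 16 arrays correlated best with one of their own number. Whether same-numbered tumours pair was not tested. Of 1140 values of named genes other than TERT under the alternatives, 989 kept the call, 151 lost it and 0 reversed; 11 of the 12 largest rises kept it under all 30. A filter on dim genes could not be run, since the values hold no level, so genes near background are not separated.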
